A study of Papio hamadryas with 14 samples.

Results

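The enzymes described here remove superoxide and peroxides, or make the glutathione that peroxide removal consumes. They were taken as every probe set whose platform annotation gives, as its only gene symbol, GPX1, GPX2, GPX3, GPX4, SOD1, SOD2, SOD3, CAT, GCLC or GCLM. That rule found 12 of 16143 non-control probe sets and 9 of 9580 genes. SOD2, the mitochondrial manganese superoxide dismutase, had no probe set of its own: 4 probe sets name it together with another gene, and no value is given for it. The remaining genes had 1 probe set each, except GPX3, CAT and GCLC, which had 2 each.

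Superoxide dismutases turn superoxide into hydrogen peroxide. Catalase, in peroxisomes, and the selenium-containing glutathione peroxidases then reduce hydrogen peroxide to water, the peroxidases by oxidising glutathione. Glutamate-cysteine ligase, made of the catalytic subunit GCLC and the modifier subunit GCLM, carries out the rate-limiting step of glutathione synthesis. In the adult kidney the proximal tubule is rich in mitochondria and peroxisomes, and it is the main source of the plasma glutathione peroxidase GPX3.

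Total RNA of whole kidney from the baboon Papio hamadryas was hybridised to human Affymetrix arrays, with no treatment named. Fetal kidneys came from 60 days of gestation (written 60dG; 2 arrays) and from 90dG, 125dG and 160dG, with 3 arrays for every later stage. Adult replicates 1, 2 and 3 were kidneys of animals aged 6, 12 and 7 years. The labels call the fetal replicates biological; the p-values measure the spread between these samples. Adult RNA was run on another array type than that of the 11 fetal arrays, so adult levels are set beside the fetal ones without a test. Baboon transcripts that differ in sequence from the human probes can give a lower signal, so levels of different probe sets were not compared. In whole tissue, fewer cells of a type and less RNA per cell cannot be told apart.

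Fetal arrays had a median signal of 172.9 to 194.3 and adult arrays of 210.0 to 214.1, and the number of arrays limits the precision. Markers of kidney were present in every group. On 60dG replicate 2, however, markers of the adrenal gland were high: 5 of the 6 measured were above every other fetal array, with CYP17A1 at 4960.3, STAR at 1096.5 and CYP11A1 at 727.8. The summed adrenal signal was 7612.6 there and 183.2 to 364.9 on the other fetal arrays. The ratio of 3' to 5' GAPDH signal, a sign of RNA quality, was 2.46 on 90dG replicate 2 and 3.43 on 90dG replicate 3, against 1.62 to 1.99 on the other fetal arrays. Calls that rest on these arrays are given with and without them. The exception is the linear slope over gestation day of genes other than the members, which is given from all fetal arrays only. Counts of groups without overlap, correlations and list medians also come from all fetal arrays only.

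**Figure D1:**
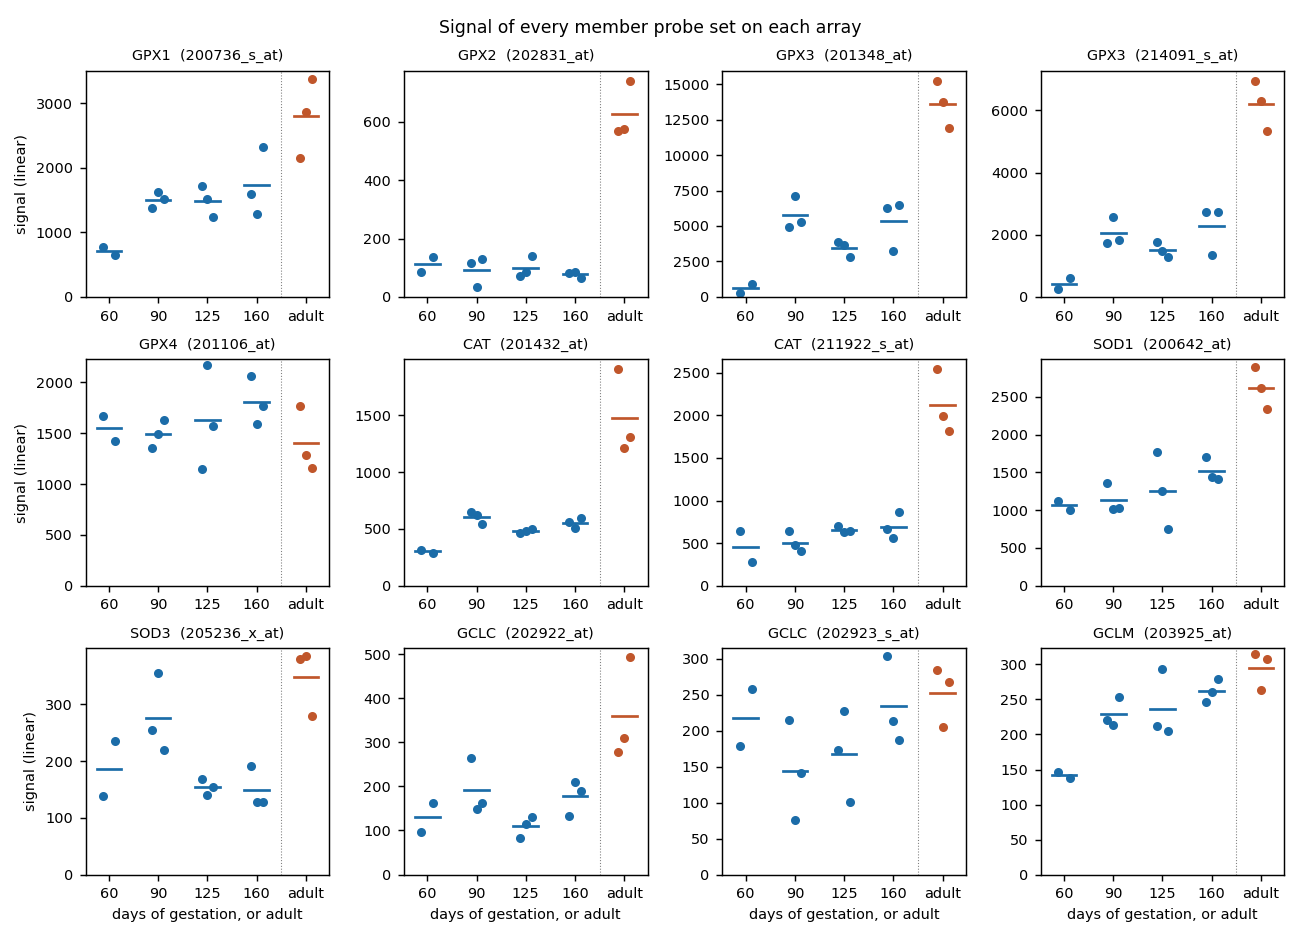
Signal (linear scale, y axes starting at 0) of each of the 12 probe sets on every array, by days of gestation and in adults; points are arrays, bars are group means, and adult arrays, in orange right of the dotted line, are of another type. GPX3 and GPX1 lie lowest at 60dG, GPX4 shows no such step, and both GPX3 probe sets, both CAT probe sets, SOD1, GPX2 and GCLC 202922_at have every adult array above every fetal array.

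Stages were compared on log2(signal + 16) with limma. The 8071 probe sets tested had a mean on that scale over the fetal arrays above 7.60, which corresponds to a signal of 177. A difference was called at a Benjamini-Hochberg adjusted p under 0.05. On the log2(signal + 16) scale differences of dim probe sets are understated. Of the 12 probe sets, 9 of 7 genes passed the filter, and GPX2 and both GCLC probe sets did not. Across the 4 fetal stages 4 of the 9 were called, representing GPX3, GPX1 and CAT, where 17.7% of all tested probe sets were called. From 60dG to 90dG 4 were called higher and 0 lower, where 4.53% of all probe sets were called higher and 4.32% lower. From 60dG to 160dG 5 were called higher and 0 lower, GCLM being the addition, where 5.67% were called higher and 4.15% lower. Between 90dG and 125dG limma called 0 members (1 at an unadjusted p under 0.05), where 6.76% of all were called. Between 125dG and 160dG it called 0 (0 at an unadjusted p under 0.05), where 0.223% were called. All member calls between neighbouring stages thus fell between 60dG and 90dG.

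GPX3, the secreted glutathione peroxidase of plasma, showed the largest change among the members. Its brighter probe set, 201348_at, read 271.9 and 928.7 at 60dG, then 4939.1, 7078.7 and 5247.3 at 90dG. It read 3894.9, 3649.7 and 2797.3 at 125dG and 6287.5, 3273.0 and 6473.3 at 160dG. The 2 arrays at 60dG were far below all later arrays, and 125dG lay wholly below 90dG. The means were 600.3 ± 464.4 (SD, n = 2), 5755 ± 1157, 3447 ± 576 and 5345 ± 1796 (SD, n = 3 each).

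On the log2 scale GPX3 rose by 3.45 ± 0.40 (SE) from 60dG to 90dG, a 10.9-fold difference with a 95% interval of 2.59 to 4.31 log2 units (limma, adjusted p = 4.23e-04). The rise from 60dG to 160dG was 3.30 ± 0.40 (adjusted p = 1.35e-04). The steps after 90dG did not pass: the difference was -0.73 ± 0.36 from 90dG to 125dG (adjusted p = 0.217) and 0.58 ± 0.36 from 125dG to 160dG (adjusted p = 0.776). Thus 60dG was the lowest stage, and no step between neighbouring later stages was called.

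The second GPX3 probe set, 214091_s_at, whose _s suffix marks probes that may match more than 1 transcript, gave the same picture at a lower signal. It read 239.9 and 604.4 at 60dG and 1736.3, 2571.8 and 1819.5 at 90dG. It read 1766.9, 1483.2 and 1270.8 at 125dG and 2734.8, 1353.6 and 2745.9 at 160dG. It rose by 2.35 ± 0.36 from 60dG to 90dG (limma, adjusted p = 0.00295) and by 2.45 ± 0.36 from 60dG to 160dG (adjusted p = 6.66e-04). Over the 11 fetal arrays the log2 values of both GPX3 probe sets correlated with r = 0.991, as a description.

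GPX3 differed more than any other member between the 60dG arrays: replicate 2 was 3.42 times replicate 1 for 201348_at and 2.52 times for 214091_s_at. Over all tested probe sets the median of that ratio was 0.982, and over 12 proximal tubule markers it was 1.22. Without 60dG replicate 2, the array with adrenal markers, the rise of 201348_at to 90dG was 4.31 (limma, adjusted p = 5.52e-05). Without replicate 1 it was 2.59 (adjusted p = 0.00446). Both GPX3 probe sets kept their calls from 60dG to 90dG without either 60dG array and without 90dG replicates 2 and 3. Over all alternative fits, however, the highest adjusted p of 214091_s_at was only just under the threshold. The call thus stood without the adrenal-marked array, while its size depended on which 60dG array was kept.

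GPX1, the cytosolic glutathione peroxidase, followed the same early step at a smaller size. Its only probe set, 200736_s_at, has the _s suffix and may also match other transcripts. It read 777.2 and 651.9 at 60dG and 1384.4, 1623.5 and 1513.1 at 90dG. It read 1713.1, 1509.5 and 1242.5 at 125dG and 1601.4, 1285.2 and 2328.6 at 160dG. All 9 later arrays were above both 60dG arrays, and the later stages overlapped. The rise from 60dG to 90dG was 1.06 ± 0.23, or 2.09-fold (limma, adjusted p = 0.0153), and from 60dG to 160dG 1.23 ± 0.23 (adjusted p = 0.00391).

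GPX1's step to 90dG did not pass without 60dG replicate 1 (1.19, limma adjusted p = 0.0808), without 60dG replicate 2 (0.94, adjusted p = 0.115), without 90dG replicates 2 and 3 (0.94, adjusted p = 0.140) or with the GAPDH ratio as a covariate (0.93, adjusted p = 0.0634). Its difference to 160dG did not pass without 60dG replicate 2 (1.10, adjusted p = 0.0515), and its F over the stages did not pass without either 60dG array (adjusted p = 0.0508 without replicate 1 and 0.104 without replicate 2). The size changed little in these fits, all but the one with the covariate holding fewer arrays.

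GPX4, which reduces lipid hydroperoxides in membranes and protects cells from ferroptosis, showed no such step. It read 1673.3 and 1428.6 at 60dG, 1360, 1491 and 1630.8 at 90dG, 1150.3, 2175.2 and 1566.8 at 125dG and 2059.2, 1593 and 1765.2 at 160dG. All 4 stages overlapped. The difference from 60dG to 90dG was -0.05 with a 95% interval of -0.55 to 0.44 (limma, adjusted p = 0.911), and from 60dG to 160dG 0.21 with an interval of -0.28 to 0.71 (adjusted p = 0.640). For GPX4 the interval to 90dG thus excludes a rise of the size measured for GPX3. Whether GPX4 and GPX3 differ in their step was not tested directly.

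GPX2, the glutathione peroxidase best known from the gut lining, was dim on every fetal array and was not tested in the main fit. It read 86 and 136.8 at 60dG, 116.6, 34 and 130.4 at 90dG, 72.5, 84.8 and 139.6 at 125dG and 83.8, 86 and 63.9 at 160dG. All fetal groups overlapped, and no fetal array reached the filter's signal. Fitted without the filter, GPX2 was not called in any fetal comparison (limma).

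Catalase, the peroxisomal enzyme that breaks down hydrogen peroxide without glutathione, was read by 2 probe sets that did not give the same result. Of these, 211922_s_at has the _s suffix and may also match other transcripts. CAT 201432_at read 316.2 and 289.1 at 60dG, 648.2, 622.3 and 541.3 at 90dG, 461.7, 486.4 and 501.0 at 125dG and 563.8, 512.4 and 593.2 at 160dG. Replicates were close, and every later array was above both 60dG arrays. It rose by 0.96 ± 0.17 from 60dG to 90dG, or 1.94-fold (limma, adjusted p = 0.00631), and by 0.84 ± 0.17 from 60dG to 160dG (adjusted p = 0.00663). From 90dG to 125dG the groups did not overlap, but the difference of -0.31 ± 0.15 did not pass (adjusted p = 0.228).

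The brighter CAT probe set, 211922_s_at, read 641.2 and 274.4 at 60dG, 638.2, 474.2 and 405.8 at 90dG, 702.6, 632.5 and 640.3 at 125dG and 660.7, 560.7 and 863.8 at 160dG. Here 60dG replicate 1 stood among the later arrays and only replicate 2 below them. Its differences, 0.23 ± 0.30 from 60dG to 90dG (limma, adjusted p = 0.666) and 0.68 ± 0.30 from 60dG to 160dG (adjusted p = 0.194), did not pass. Without 60dG replicate 1 the latter was 1.27 (adjusted p = 0.0325). The CAT probe sets correlated with r = 0.460 over the 11 fetal arrays, as a description.

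For CAT 201432_at the call to 90dG also depended on both 60dG arrays: its adjusted p (limma) was 0.0550 without replicate 1 and 0.0596 without replicate 2, at differences of 1.02 and 0.90. Without replicate 2 the difference to 160dG was 0.78 (adjusted p = 0.0705). Red cell content was read beside CAT and GPX1, since both enzymes are also found in red cells. The summed signal of 7 measured red cell markers was 1928.5 to 3490.1 at 60dG, 1830.5 to 3066.9 at 90dG, 817.4 to 1101.4 at 125dG and 1074.5 to 1374.0 at 160dG. The 2 red cell genes that passed the filter went opposite ways from 60dG to 160dG: the embryonic globin HBE1 fell by 3.62 on the log2 scale (limma, adjusted p = 3.25e-05), and HBB, the adult beta globin, rose by 1.08 ± 0.22 (adjusted p = 0.00727), a call lost without 60dG replicate 2. From 60dG to 90dG neither was called (-0.06 and -0.12). The part of red cell content in the rise of CAT and GPX1 was not tested.

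Superoxide dismutases supply the hydrogen peroxide that these enzymes remove, and neither measured one was called in any fetal comparison. SOD1, the cytosolic copper-zinc enzyme, read 1115.9 and 1008.9 at 60dG, 1365, 1017.5 and 1022.9 at 90dG, 1766.4, 1259 and 751.6 at 125dG and 1697.6, 1438.5 and 1409.8 at 160dG. The 160dG arrays were above both 60dG arrays, and the 125dG arrays spanned the other fetal groups. From 60dG to 160dG the difference was 0.50 with a 95% interval of -0.10 to 1.10 (limma, adjusted p = 0.304).

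SOD3, the secreted enzyme of the extracellular matrix, was just above the filter and its _x probe set may also match other transcripts. It read 138.2 and 235.3 at 60dG, 254.9, 355.7 and 219.7 at 90dG, 168.7, 140.2 and 155.3 at 125dG and 191.9, 127.6 and 127.7 at 160dG. The 90dG arrays lay above all 125dG and 160dG arrays. The difference from 90dG to 125dG, -0.75 ± 0.27, did not pass (limma, adjusted p = 0.101), except with array weights (-0.96, adjusted p = 0.0227).

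Of the glutamate-cysteine ligase subunits only GCLM, the modifier, passed the filter. It read 146.6 and 138.2 at 60dG, 220.2, 213.7 and 253.8 at 90dG, 212.3, 293.5 and 204.9 at 125dG and 246.5, 260.2 and 278.6 at 160dG. Every later array was above both 60dG arrays, while neighbouring later stages overlapped. From 60dG to 160dG it rose by 0.81 ± 0.23, or 1.75-fold (limma, adjusted p = 0.0391), and the step of 0.63 ± 0.23 to 90dG did not pass (adjusted p = 0.1005). The GCLM call was weak: it was lost in 10 of 22 alternative fits, with adjusted p between 0.01998 and 0.171 over them, and was 0.163 without 60dG replicate 1 and 0.171 without replicate 2.

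GCLC, the catalytic subunit, was dim and not tested in the main fit, and its 2 probe sets barely moved together (r = 0.119 over the 11 fetal arrays). GCLC 202922_at read 95.9 and 163 at 60dG, 265.3, 149 and 161.5 at 90dG, 82.6, 115.1 and 129.9 at 125dG and 132.5, 210.6 and 190.5 at 160dG. GCLC 202923_s_at, just under the filter, read 179.2 and 257.3 at 60dG, 214.4, 75.3 and 140.5 at 90dG, 173, 227.5 and 101.5 at 125dG and 303.3, 212.9 and 186.4 at 160dG. No stage of 202923_s_at stood apart from the others, and 202922_at was lower at 125dG than at 90dG and 160dG on every array. Fitted without the filter, neither GCLC probe set was called in any fetal comparison. The difference of 202922_at from 90dG to 125dG was then -0.71 ± 0.32 (limma, adjusted p = 0.248).

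**Figure D2:**
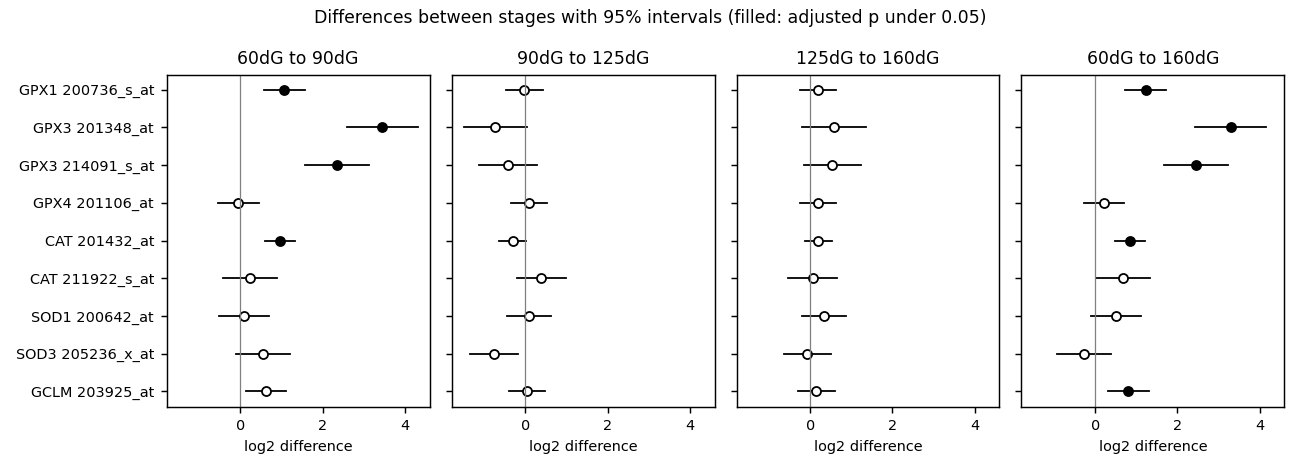
Log2 differences between stages (later minus earlier) of the 9 tested probe sets with 95% intervals from limma; filled points have an adjusted p under 0.05. Filled points appear only in the 60dG to 90dG and 60dG to 160dG panels, with GPX3 201348_at farthest to the right at 3.45 and 3.30.

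The linear slope over gestation day was not called for any member (limma, 0 of 9; 5 at an unadjusted p under 0.05), where 8.61% of all tested probe sets were called. GPX3 201348_at had a slope of 0.22 ± 0.08 log2 per 10 days (adjusted p = 0.0880) and GPX1 0.09 ± 0.03 (adjusted p = 0.0526). Without the 90dG group, left out as an alternative, 5 were called for the slope, and GPX3 201348_at had a slope of 0.33 (adjusted p = 6.20e-04). Between 60dG and 90dG 5 of 9 probe sets had groups that did not overlap, all higher at 90dG, where 22.5% of all did so. Between 60dG and 160dG it was 6 of 9, against 20.1%. Between 90dG and 125dG 3 of 9 lay wholly lower (GPX3 201348_at, CAT 201432_at and SOD3), against 15.2%.

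Adult levels exceeded fetal ones for most of these enzymes, but the array types differ and this was not tested. GPX3 201348_at read 15201, 13752 and 11923.9 in the adults, 2.55 times the 160dG mean, and 214091_s_at read 6940.6, 6303.7 and 5349.5, or 2.72 times. CAT 201432_at read 1912.3, 1213.0 and 1314.1 (2.66 times) and CAT 211922_s_at 2542.6, 1987.5 and 1819.3 (3.05 times). For both genes every adult array was above every fetal array, and the CAT probe sets gave like ratios. Before birth they differed more in the step from 60dG to 90dG (1.94-fold and 1.175-fold) than from 60dG to 160dG (1.80-fold and 1.60-fold).

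GPX2 had the largest adult to 160dG ratio of the group. It read 568.6, 575.1 and 740.6 in adults against at most 139.6 on any fetal array, 8.06 times the 160dG mean. SOD1 read 2888.1, 2614.8 and 2332.4, also above every fetal array (1.72 times). SOD3 read 380.3, 386.3 and 279, which is 2.34 times the 160dG mean but overlaps its 90dG values.

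Apart from GCLC 202922_at, the remaining members differed less between 160dG and adult. GPX1 read 2151.7, 2864.8 and 3369.2 (1.61 times), overlapping 160dG. GCLM read 314.4, 263.6 and 308.4 (1.13 times), and GCLC 278.4, 309.8 and 492.7 for 202922_at (2.03 times) but 283.9, 205.5 and 268.3 for 202923_s_at (1.08 times). GPX4 was the only member with a lower adult mean, at 1766.2, 1288.9 and 1156 (0.777 times), and its adult arrays overlapped every fetal stage.

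Of the 9 tested probe sets, 6 were higher in every adult than in every 160dG array, where 18.7% of all tested probe sets were, and 5 were at least 2-fold higher, where 4.56% were. In 5 of 9 every adult array exceeded every fetal array, against 11.7% of all. Over all tested probe sets the median of adult minus 160dG was -0.17 on the log2 scale. Except for GPX4, the members' differences were above 0.

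Proximal tubule markers were read beside GPX3 and GPX1. Of 18 listed markers 14 were measured and 12 passed the filter. Limma called 9 of the 12 higher from 60dG to 90dG, with a median of 1.36, and 11 between 60dG and 160dG, with a median of 1.61. Without 60dG replicate 1 these were 2 and 7, and without replicate 2 they were 7 and 10. The 9 became 5 without 90dG replicates 2 and 3. None of the markers was called lower from 60dG to 90dG or to 160dG.

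Some markers of other kidney cells were also called higher. Of 3 tested collecting duct markers ATP6V1B1, a proton pump subunit, was called from 60dG to 90dG (1.34 ± 0.36, limma adjusted p = 0.0354), and 2 were called from 60dG to 160dG. Of 4 markers of smooth muscle and vessel wall RGS5, a pericyte gene, was called to 90dG (1.05 ± 0.27, adjusted p = 0.0315; list median 0.80), and 2 were called to 160dG. Both thick ascending limb markers were called to 160dG (list median 1.85) and neither to 90dG (0.06), and 0 of 4 podocyte markers were called in either comparison (limma; 0 at an unadjusted p under 0.05). The ATP6V1B1 call to 90dG was lost without either 60dG array, and that of RGS5 without 60dG replicate 1; both were lost without 90dG replicates 2 and 3 and with the GAPDH covariate. To 160dG the thick ascending limb count was 1 without either 60dG array, that of smooth muscle and vessel wall likewise 1, and that of the collecting duct 2 without replicate 1 and 1 without replicate 2.

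The summed proximal tubule signal was 3498.2 to 3995.5 at 60dG, 9097.4 to 12335.2 at 90dG, 11923.5 to 13606.8 at 125dG, 10247.1 to 22244.9 at 160dG and 26926.6 to 28934.8 in adults. At 160dG the arrays had the same order for this sum, GPX3 201348_at and GPX1. Replicate 2 was lowest there, replicate 1 between and replicate 3 highest. No earlier stage had the full order in common. At 90dG the sum (12335.2) and both genes were highest on replicate 2. The lowest array at 90dG was replicate 3 for the sum (9097.4) and replicate 1 for both genes. At 125dG the sum (13606.8) and both genes were highest on replicate 1. The lowest array at 125dG was replicate 2 for the sum (11923.5) and replicate 3 for both genes. At 60dG replicate 2 was above replicate 1 for the sum and GPX3 but below it for GPX1. The rise of GPX3, 3.45 to 90dG, was larger than that of each of the 12 markers, whose largest was AQP1, the water channel, at 2.81; that difference was not tested. To 160dG the marker GATM, which makes a creatine precursor, rose by 3.46 ± 0.54, beside 3.30 for GPX3. At 60dG, where the sum was lowest, GPX4 (1428.6 and 1673.3) lay within its later range of 1150.3 to 2175.2. A relation of GPX4 to the sum was not tested. The part of cell type content, of the proximal tubule or other kidney cells, in the rise of GPX3 and GPX1 was not tested.

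**Figure D3:**
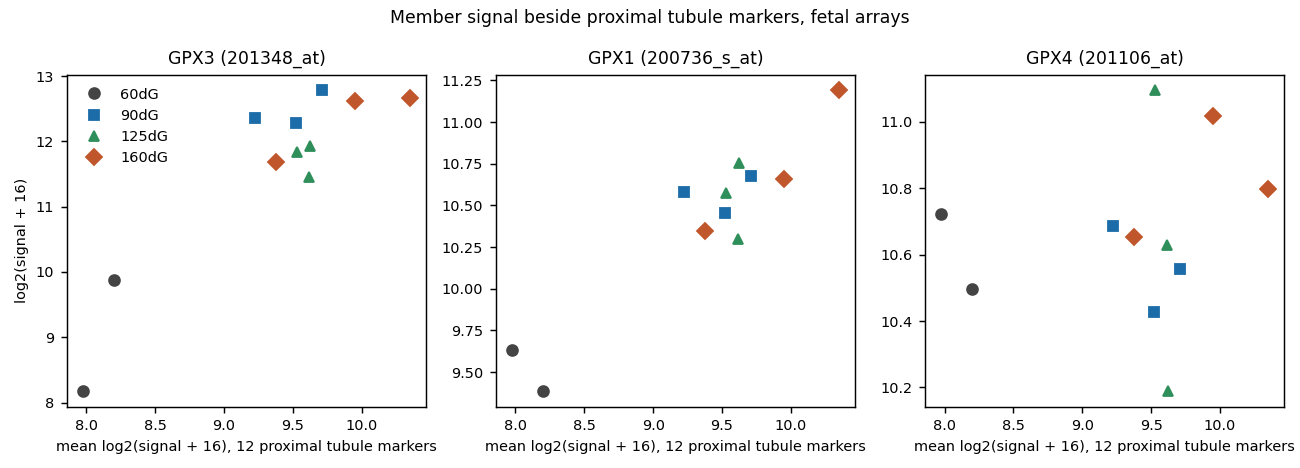
Log2(signal + 16) of GPX3 201348_at, GPX1 and GPX4 on each of the 11 fetal arrays (y axes, own range each) against the mean log2(signal + 16) of 12 proximal tubule markers (x axis); symbols give the stage. The 60dG arrays lie lowest on both axes for GPX3 and GPX1, while GPX4 at 60dG lies within its later range.

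The genes whose log2 values most resembled each member over the 11 fetal arrays are given by Pearson's r. They were taken from 7181 candidate probe sets, as a description. Arrays of a stage share that stage, which can raise r, so r is also given with stage means removed. GPX3 was most like DCXR, a dicarbonyl reductase (r = 0.966), ANPEP, the brush border aminopeptidase N (0.961), and DAB2, an endocytic adaptor (0.960). GPX1 was most like HPN, the membrane protease hepsin (0.980), ALDH1L1, a folate dehydrogenase (0.960), and MDH1, the cytosolic malate dehydrogenase (0.951). GCLM was most like TMEM14A (0.934), the aminopeptidase XPNPEP2 (0.931) and the matrix protein THBS2 (0.923). With stage means removed, r was 0.584 for GCLM and THBS2, 0.628 for GCLM and XPNPEP2 and 0.729 for GPX3 and ANPEP. For the other pairs of this paragraph it was then 0.828 to 0.947.

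The brighter CAT probe set was most like IQGAP2 (0.887), the brush border aminopeptidase ENPEP (0.884) and MTMR9 (0.882). SOD3 was most like the selenoprotein SELENOW (0.938), SOD1 most like the syndecan SDC2 (0.916) and GPX4 most like the kinase RIOK3 (0.872). With stage means removed, r was slightly higher for CAT and IQGAP2 (0.905) and for GPX4 and RIOK3 (0.899). For the other pairs of this paragraph it was lower, at 0.807 to 0.905. ANPEP is also one of the proximal tubule markers above.

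Related gene lists were read with 1 probe set per gene. The members gave a median of 0.55 for the step to 90dG and 0.68 for 60dG to 160dG, beside 0.04 and -0.01 over all 5282 tested genes. The shares of all tested genes called higher were 5.13% and 6.23%, and 4.22% were called lower from 60dG to 160dG. Between 90dG and 125dG 2.63% were called higher and 2.76% lower, and 4.35% were called higher for the slope.

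The selenium-containing glutathione peroxidases depend on selenoprotein synthesis and selenium supply. Of 10 tested genes of that list 4 were called higher and 0 lower from 60dG to 90dG (median 0.54). They were MSRB1, a selenium-dependent methionine sulfoxide reductase (2.10 ± 0.48, limma adjusted p = 0.0182), LRP2, the tubular receptor megalin that takes up selenoprotein P (1.29 ± 0.35, adjusted p = 0.0364), DIO1, the type 1 deiodinase (1.20 ± 0.28, adjusted p = 0.0204), and SEPHS2, which makes the selenium donor (1.17 ± 0.25, adjusted p = 0.0150). LRP2 is also a proximal tubule marker. The 4 calls fell to 0 without 60dG replicate 1, to 1 without replicate 2, to 0 with the GAPDH covariate and to 0 without 90dG replicates 2 and 3. At 125dG MSRB1 was lower than at 90dG (-1.67 ± 0.43, adjusted p = 0.0368), a call lost in the last 2 of those fits.

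Between 60dG and 160dG 4 selenium genes were higher and 1 lower. DIO1 rose by 2.26 ± 0.28 (limma, adjusted p = 1.72e-04), from a mean of 90.8 ± 41.6 (SD, n = 2) to 481.6 ± 80.6 (SD, n = 3), and read 2822 ± 231 (SD, n = 3) in adults. SELENOP, the plasma selenium carrier, rose by 1.55 ± 0.40 (adjusted p = 0.0239). SEPHS1, the paralog of SEPHS2 that lacks selenium, fell by 0.77 on the log2 scale (adjusted p = 0.0196). The 4 higher calls were 1 without 60dG replicate 1 and 2 without replicate 2, and the lower call was lost without either.

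Among enzymes that produce hydrogen peroxide or superoxide, 3 of 8 tested genes were called higher from 60dG to 90dG (median 0.81) and 5 from 60dG to 160dG (median 1.04), with 0 lower. In the steps from 90dG to 125dG and from there to 160dG limma called 0 of them higher (4 and 1 at an unadjusted p under 0.05 in either direction). The 5 were AOC1, the diamine oxidase (3.53 ± 0.36, limma adjusted p = 3.39e-05), NOX4, the kidney NADPH oxidase (2.01 ± 0.31, adjusted p = 8.32e-04), HAO2, a peroxisomal hydroxyacid oxidase (1.43 ± 0.39), ACOX2, a peroxisomal acyl-CoA oxidase (1.08 ± 0.18), and AOX1, aldehyde oxidase (1.00 ± 0.21). AOC1 read 76.2 ± 0.9 (SD, n = 2) at 60dG, 250.2 ± 97.1 at 90dG, 450.9 ± 91.3 at 125dG and 1137 ± 567 at 160dG (SD, n = 3 each).

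For 4 of the 8 producers the slope over gestation was called, among them AOC1 and NOX4. Without 60dG replicate 1, and likewise without replicate 2, the calls to 160dG were 3 and those to 90dG 0. Those to 90dG were also 0 without 90dG replicates 2 and 3. CYBA, the shared NADPH oxidase subunit p22phox, was called lower from 90dG to 125dG (-1.13 ± 0.24, limma adjusted p = 0.0177), but not without 90dG replicates 2 and 3 or with the GAPDH covariate.

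The peroxiredoxin and thioredoxin system is a parallel route of peroxide removal. Of its 13 tested genes 2 were called higher from 60dG to 90dG (median 0.08): GLRX5, a mitochondrial glutaredoxin (0.81 ± 0.19, limma adjusted p = 0.0193), and PRDX4, the peroxiredoxin of the endoplasmic reticulum (0.54 ± 0.15, adjusted p = 0.0430). From 90dG to 125dG 4 were called lower: TXN, thioredoxin (-0.89 ± 0.23, adjusted p = 0.0395), GLRX5 (-0.79 ± 0.17), PRDX6 (-0.78 ± 0.16) and PRDX4 (-0.50 ± 0.14). From 60dG to 160dG 1 was higher, TXNIP, the thioredoxin inhibitor (0.94 ± 0.19, adjusted p = 0.00555), which was not called without 60dG replicate 2. For the slope TXNIP was called higher and TXN lower.

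Those 4 lower calls were 0 without 90dG replicates 2 and 3, the arrays with the high GAPDH ratio, 1 with the GAPDH covariate and 2 without either 60dG array. The 2 higher calls were 0 without 60dG replicate 1, 0 without replicate 2 and 0 without 90dG replicates 2 and 3. Their part in the result was not tested beyond these fits.

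In glutathione synthesis, recycling and breakdown 3 of 10 tested genes were called higher from 60dG to 90dG (median 0.31) and 0 lower. They were ANPEP (1.68 ± 0.26, limma adjusted p = 0.00307), SLC3A2, the heavy chain of the cystine carrier (1.26 ± 0.23, adjusted p = 0.00707), and GSS, glutathione synthetase (0.84 ± 0.21, adjusted p = 0.0252), which follows glutamate-cysteine ligase in the pathway. Without 60dG replicate 1 the count was 0, without replicate 2 it was 2, and without 90dG replicates 2 and 3 it was 1. From 60dG to 160dG ANPEP alone was called (1.49 ± 0.26); that count was 0 without 60dG replicate 1, 1 without replicate 2 and 2 without 90dG replicates 2 and 3 or with the GAPDH covariate. CTH, which makes cysteine, was called for the slope (0.12 log2 per 10 days, adjusted p = 0.0476).

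The other lists held few calls. Of 12 glutathione S-transferases, GSTM5 was called higher from 60dG to 90dG (0.87 ± 0.22) and lower from 90dG to 125dG (-0.75 ± 0.20), and GSTK1 and MGST2 higher from 60dG to 160dG. Of 11 genes of NRF2, the regulator of antioxidant genes, and its classic targets, KEAP1, its inhibitor (1.23 ± 0.30), and FTL, the ferritin light chain (1.06 ± 0.25), were called higher from 60dG to 90dG. NFE2L2, the gene of NRF2 itself, was called higher at 125dG than at 90dG, and between 60dG and 160dG (0.66 ± 0.17, limma adjusted p = 0.0213). ATOX1, a copper chaperone, was called higher from 60dG to 90dG (0.80 ± 0.23), as 1 of 4 genes of copper and manganese supply, and lower at 125dG than at 90dG (-0.78 ± 0.20), with like means at 125dG and 60dG (354.8 ± 27.6 against 349.4 ± 1.9, SD, n = 3 and 2).

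Of 7 peroxisome assembly genes, PEX5, the import receptor for enzymes such as catalase, was called higher from 60dG to 90dG (2.02 ± 0.55, limma adjusted p = 0.0364). The single tested gene among the other glutathione peroxidases, GPX7, was not called. The early calls of GSTM5, ATOX1 and PEX5 were each lost without either 60dG array, without 90dG replicates 2 and 3 and with the GAPDH covariate, and so were the lower calls of GSTM5 and ATOX1 to 125dG. The calls to 160dG of GSTK1, MGST2 and NFE2L2 were lost without either 60dG array. Of the 2 NRF2-list calls to 90dG, 1 was left without 60dG replicate 1 and 0 without replicate 2, without 90dG replicates 2 and 3 or with the GAPDH covariate. NFE2L2's call from 90dG to 125dG was lost without 90dG replicates 2 and 3.

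**Figure D4:**
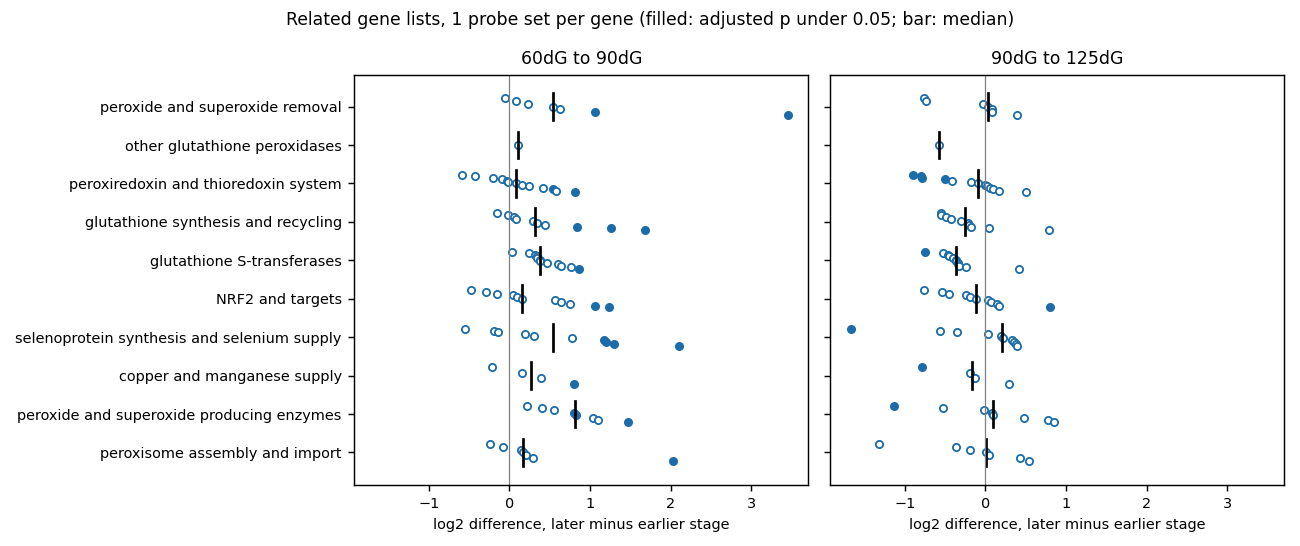
Log2 difference of each tested gene (1 probe set per gene) in the 9 related gene lists and the members, from 60dG to 90dG (left) and from 90dG to 125dG (right); filled points have a limma adjusted p under 0.05 and black bars are list medians. From 60dG to 90dG all filled points lie right of 0, with GPX3 at 3.45 the farthest, and from 90dG to 125dG all but NFE2L2 lie left of 0.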

How the data were processed

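Biotin-labelled cRNA of each kidney was hybridised to 1 array. The authors deposited linear signal intensities, 1 per probe set, made with GCOS per the submitters' processing notes; its algorithm, version and scaling are unknown here. The highest 2% trimmed mean was 1.02 times the lowest among fetal arrays and 1.07 times among all 14, and no rescaling was done. Gene names came from the platform annotation: 14068 probe sets have 1 symbol, 735 several and 1340 none, besides 43 controls. Values were used as log2(signal + 16). Probe sets with a mean above the 0.5 quantile over the fetal arrays (7.60 on the log2 scale) were fitted with limma 3.58.1 in R 4.3.3 (lmFit, eBayes with an intensity trend), with stage as a factor or gestation day as a number, and Benjamini-Hochberg adjustment over all 8071. The script was tested on simulated data. The members and gene lists were chosen with earlier results of these data known. All member probe sets are named; of each list, by rule, up to 3 genes called for the slope and 2 called from 60dG to 90dG are, and further list genes were named after their values were seen. Alternatives were other pseudocounts (1, 64), filters (none, 0.75 quantile), eBayes without a trend, quantile normalization, 1 probe set per gene, array weights, a block for the replicate number, and leaving out arrays. After the data had been seen, list counts were added without the 60dG arrays or 90dG replicates 2 and 3, and with the GAPDH covariate. The sequences of probes and promoters were not used here. Figures were drawn with matplotlib 3.10.9.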

Additional observations from a re-analysis of the deposited data

How the results depend on the processing

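The counts of called members are out of 9 tested probe sets, and each was within 1.5 times its main value under every alternative not named here. Leaving out each array in turn gave 2 to 4 for the stages (4 with all arrays), 0 to 3 for the slope (0), 2 to 4 from 60dG to 90dG (4), 0 for both 90dG to 125dG and 125dG to 160dG (0 each), and 2 to 5 between 60dG and 160dG (5). The lowest counts came without a 60dG array, which leaves 1 array at that stage, assumed to vary like the others: 2 from 60dG to 90dG without either, and 2 for the stages and to 160dG without replicate 2. Over all probe sets, 715 were called from 60dG to 90dG, 95 without 60dG replicate 1 and 212 without replicate 2. With 1 probe set per gene, which drops CAT 201432_at and the dimmer GPX3 probe set, 2 were called for the stages, 1 for the slope, 2 from 60dG to 90dG and 3 for 60dG to 160dG. The slope was the least stable: 1 member was called with the 0.75 quantile filter, 3 with quantile normalization, 3 without replicate 2 of 90dG, 2 without its replicate 3, 3 without both, 5 without the whole 90dG group, 4 with the GAPDH covariate and 2 without 160dG replicate 2; the cause was not tested. From 90dG to 125dG array weights called 1, SOD3. No result changed direction while called. Same-numbered arrays showed no clear pairing. Of 15 such pairs 3 correlated above 0.1 (range -0.10 to 0.20), and 6 of 11 arrays correlated best with their own number. The 2 arrays at 60dG deviate from their mean by opposite amounts, so these counts are not independent and cannot exclude a pairing. With the replicate block the counts were 4, 0, 4, 0, 0 and 4 in the order above, and the 1 call lost was GCLM from 60dG to 160dG (0.80, limma adjusted p = 0.0752). That GCLM call was also lost without a filter (adjusted p = 0.0795) and with quantile normalization (0.0537). Adult means moved by less than 1 SD when scaled to the fetal trimmed mean. Members near the filter (SOD3, GCLC) are limited by low signal.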
